A study of Mus musculus with 8 samples.

Results

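Adult mouse haemoglobin is encoded by 4 genes that are read out abundantly in this whole brain dataset: Hba-a1 and Hba-a2 for the alpha chain, and Hbb-bs and Hbb-bt for the beta chain. They are described here together with Alas2, the erythroid form of 5-aminolevulinate synthase, which catalyses the first step of haem synthesis. The members are the rows of the long-read gene count matrix whose Ensembl identifiers belong to these genes, which gave 5 of 22430 genes, and all 5 passed the filter on low counts among the 9375 genes tested. RNA of a whole brain hemisphere was sequenced by Oxford Nanopore (ONT) direct RNA sequencing, a method that reads unamplified RNA strands, from 4 young adult (6m, 6 months) and 4 aged (24m, 24 months) mice. All 8 mice were males of the inbred C57Bl/6JRj strain, with 1 library per mouse, so the replicates are separate animals. The question of the comparison is which mRNAs differ in abundance between the ages. The methods describe a brief wash of the dissected tissue in sucrose buffer and mention no perfusion, and the sample labels name another library kit than the methods, which were followed here.

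Haemoglobin carries oxygen as a tetramer of alpha and beta chains, each holding a haem group. Its mRNAs are made in erythroid precursors, remain in reticulocytes, and are known at lower levels from some brain cells. Alas2 sets the supply of haem in erythroid cells, whereas its relative Alas1 does so in other cells. In bulk tissue, fewer cells of a type and less RNA per cell cannot be told apart.

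The genes lie in 3 places of the GRCm39 genome. Hba-a1 (ENSMUSG00000069919, chr11:32233186-32234504) and Hba-a2 (ENSMUSG00000069917, chr11:32246168-32247320) are on the forward strand of chromosome 11, each with 3 exons. Hbb-bs (ENSMUSG00000052305, chr7:103475730-103482989) and Hbb-bt (ENSMUSG00000073940, chr7:103461727-103465047) are on the reverse strand of chromosome 7, also with 3 exons each. Alas2 (ENSMUSG00000025270, chrX:149330371-149353634) is on the forward strand of the X chromosome and has 11 exons.

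The copies of a chain are nearly the same sequence, which bears on how reads can be assigned to them. The coding sequences of Hba-a1 and Hba-a2 were identical at 425 of 426 aligned positions, without the stop codon, and their canonical transcripts at 646 of 647 positions of the best local alignment. Those of Hbb-bs and Hbb-bt were identical at 440 of 441 coding positions. Their canonical transcripts differed more, with 47 mismatches and 7 gap positions in 663 aligned positions, which is 91.9% identity. The alpha and beta chains themselves are distant, with 61.0% identity between the coding sequences of Hba-a1 and Hbb-bs. The coding stretches of 90 bases around the differing base of each pair are shown in transcript orientation, 5′ to 3′, with that base in capitals. They lie at chr11:32234299-32234388, chr11:32247116-32247205, chr7:103475875-103475964 and chr7:103461866-103461955 of GRCm39.
Hba-a1: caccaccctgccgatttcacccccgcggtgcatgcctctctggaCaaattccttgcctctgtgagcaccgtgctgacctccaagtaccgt
Hba-a2: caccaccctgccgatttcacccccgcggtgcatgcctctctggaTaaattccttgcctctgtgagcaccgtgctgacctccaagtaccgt
Hbb-bs: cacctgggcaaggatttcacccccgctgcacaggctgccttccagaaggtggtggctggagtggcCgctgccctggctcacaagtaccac
Hbb-bt: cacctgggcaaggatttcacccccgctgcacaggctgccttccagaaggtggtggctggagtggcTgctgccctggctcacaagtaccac

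The promoters of the members are also shown, and any link to their levels was not tested. Each is given as the 120 bases before the RefSeq transcription start on the gene's strand, 5′ to 3′, in the GRCm38.p6 build. RefSeq entries were matched for all 5 members. Capitals mark 4 short motifs known from erythroid promoters, searched on either strand: CACCC, the core of the box that Krüppel-like factors bind, CCAAT, the box of nuclear factor Y, TATAA, the TATA box, and GATAA, the core of the box that GATA factors bind. TATAA can overlap its own reverse complement, and the motifs may otherwise share only end letters. The windows are chr11:32283552-32283671, chr11:32296372-32296491, chr7:103827929-103828048, chr7:103813924-103814043 and chrX:150547297-150547416, in the order below.
Hba-a1: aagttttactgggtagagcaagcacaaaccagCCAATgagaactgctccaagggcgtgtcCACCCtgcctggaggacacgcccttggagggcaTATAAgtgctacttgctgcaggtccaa
Hba-a2: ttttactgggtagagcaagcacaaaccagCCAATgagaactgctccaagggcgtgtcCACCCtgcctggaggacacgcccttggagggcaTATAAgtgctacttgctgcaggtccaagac
Hbb-bs: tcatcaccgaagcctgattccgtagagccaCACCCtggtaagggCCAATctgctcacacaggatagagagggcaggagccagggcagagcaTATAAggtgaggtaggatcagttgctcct
Hbb-bt: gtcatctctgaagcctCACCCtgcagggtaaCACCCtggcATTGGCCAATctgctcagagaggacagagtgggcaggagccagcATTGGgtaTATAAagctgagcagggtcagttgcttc
Alas2: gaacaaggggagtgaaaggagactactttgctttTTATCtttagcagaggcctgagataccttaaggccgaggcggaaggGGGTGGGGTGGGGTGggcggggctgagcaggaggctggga

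In the 250 bases before the start, all 5 members held CACCC, which 51.3% of the 27025 RefSeq promoter windows of this length held. The letters TATAA were also found in all 5 members, against 23.5% of all windows, and GATAA in all 5, against 23.0%. In the 120 bases shown, nearer the start, Alas2 held no TATAA, and Alas2 alone held GATAA. The CCAAT box was found in 4 members, against 34.5% of all windows. The windows of Hba-a1 and Hba-a2 were 97.6% identical and those of Hbb-bs and Hbb-bt 70.9% identical. These matches describe letters only, and no binding was measured.

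Library totals ran from 573152 to 1255424 counts on genes and did not differ detectably between the ages (exact two-sided permutation test over 70 assignments, p = 0.543, n = 4 and 4, where 0.029 is the smallest p possible). Levels are given as CPM, read counts scaled to a common library size, with TMM factors of 0.958 to 1.06. Brain markers together had 936 to 1652 counts per library at 6m and 1968 to 3507 at 24m, although Cx3cr1 and Pdgfra had none in at least 1 library. In 24m replicate 1, Ighm and Igkc, which encode immunoglobulin chains, had 519 and 702 counts, against at most 74 and 35 in any other library. That library was also the 24m library with the highest globin levels, and results are given without it where it matters. Whether the immunoglobulin RNA has any part in them was not tested.

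All 5 members were less abundant in the aged brain, at 0.503 to 0.601 of their young adult level in the fit, and the order of the libraries was the same for all 4 globins. At 6m the globins together made up 0.591% to 0.959% of all counts of a library, and at 24m 0.347% to 0.622%. These sums may hold alpha reads counted on both copies, as the shares of the copies show, and with the Hba-a2 row left out, an alternative added after these counts were seen, they were 0.402% to 0.650% at 6m and 0.231% to 0.426% at 24m. The members ranked high among all genes by mean level, with Hba-a1 at position 47, Hba-a2 at 48, Hbb-bs at 71 and Hbb-bt at 395 of 22430, whereas Alas2 stood at 6511.

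Hba-a1, an alpha chain gene, had 1820, 1429, 2650 and 1571 counts in 6m replicates 1 to 4 and 1319, 1285, 1211 and 1477 counts in 24m replicates 1 to 4. In CPM these were 2240, 2584, 3298 and 1973 at 6m and 2010, 1336, 1550 and 1133 at 24m. The 6m replicate 3 library was the highest, and 24m replicate 1 reached just above 6m replicate 4, so the ages overlapped by that pair of libraries. The level averaged 2524 ± 574 CPM in young adult and 1507 ± 376 CPM in aged libraries (SD, n = 4 per age), and the gene fell by 0.75 on the log2 scale (SE 0.14, 95% interval −1.04 to −0.46, edgeR quasi-likelihood test with Benjamini-Hochberg adjustment over 9375 genes, adjusted p = 0.000471).

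Hba-a2, the other alpha chain gene, had counts within 57 of those of Hba-a1 in every library, and its CPM were 2198, 2510, 3227 and 1940 at 6m and 1980, 1316, 1534 and 1123 at 24m. The libraries stood in the same order as for Hba-a1, with the same overlap of 24m replicate 1 and 6m replicate 4. It fell by 0.74 on the log2 scale (SE 0.14, edgeR adjusted p = 0.000529), from 2469 ± 557 to 1488 ± 368 CPM (SD, n = 4 each). Because the 2 rows carry nearly the same counts, this is not a second measurement of the alpha chain.

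Hbb-bs, the more abundant beta chain gene, had 1616, 1224, 2237 and 1348 counts at 6m and 1183, 983, 857 and 1111 counts at 24m. Its CPM were 1989, 2213, 2784 and 1693 at 6m and 1803, 1022, 1097 and 852 at 24m. Again 3 of the 4 aged libraries were below every young adult library, and 24m replicate 1 was not. The level averaged 2170 ± 462 CPM in young adult and 1194 ± 419 CPM in aged libraries (SD, n = 4 per age), and the gene fell by 0.87 on the log2 scale (SE 0.16, 95% interval −1.19 to −0.55, edgeR adjusted p = 0.000348).

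Hbb-bt, the less abundant beta chain gene, had 448, 339, 562 and 372 counts at 6m and 309, 261, 227 and 307 counts at 24m. Its CPM were 551, 613, 699 and 467 at 6m and 471, 271, 290 and 235 at 24m. The overlap was by the smallest margin of the 4 globins, with 24m replicate 1 at 471 CPM and 6m replicate 4 at 467 CPM. The gene fell by 0.90 on the log2 scale (SE 0.15, 95% interval −1.21 to −0.60, edgeR adjusted p = 0.000122), from 583 ± 98.1 to 317 ± 105 CPM (SD, n = 4 each).

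Alas2, which supplies haem to erythroid cells, was counted only 15, 13, 18 and 14 times at 6m and 12, 12, 4 and 9 times at 24m. Its CPM were 18.5, 23.5, 22.4 and 17.6 at 6m and 18.3, 12.5, 5.12 and 6.90 at 24m. Here too 24m replicate 1 lay inside the range of the young adult libraries, and the other 3 aged libraries lay below it. The gene fell by 0.99 on the log2 scale with a wide error (SE 0.34, 95% interval −1.69 to −0.29, edgeR adjusted p = 0.0373), from 20.5 ± 2.91 to 10.7 ± 5.95 CPM (SD, n = 4 each). At these counts the call is near the threshold: leaving out any 1 library other than 24m replicate 1 raised the adjusted p above 0.05, to between 0.0555 and 0.142, with a log2FC between −1.11 and −0.77.

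**Figure D1:**
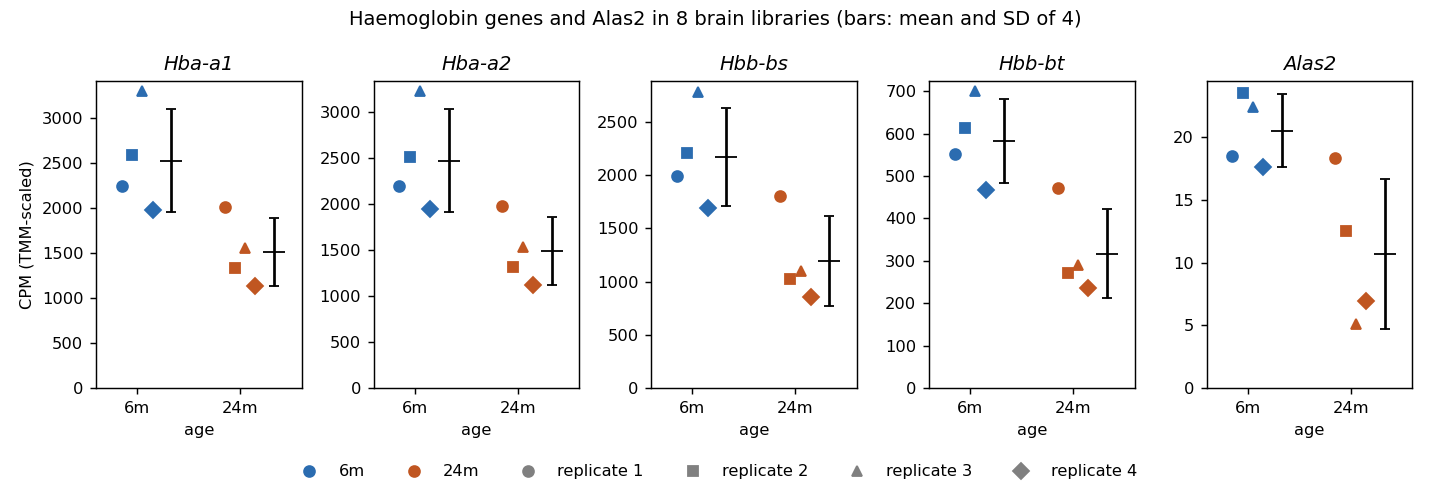
Level of each member in TMM-scaled CPM (vertical axes, from 0 and on a scale of their own) for the young adult (6m, blue) and aged (24m, orange) libraries, with marker shapes for replicate numbers and black bars for the mean and SD of 4. In every panel 3 of the 4 aged libraries lie below all young adult libraries and 24m replicate 1 lies level with 6m replicate 4, at 2010 against 1973 CPM for Hba-a1.

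A gene counted as changed when its adjusted p was 0.05 or less and its log2FC was 0.58 or more in size. All 5 members were changed, all lower at 24m, as were 4.17% of the genes tested, and 14.5% were changed in either direction. The median log2FC of the members was −0.87, that of Hbb-bs, and over all genes tested it was −0.0034. Of all genes tested, 4.31% had a lower log2FC than Hba-a1, 2.79% than Hbb-bs, 2.56% than Hbb-bt and 1.81% than Alas2. In no member did every 24m library lie below every 6m library, a pattern that 9.96% of the genes tested showed. Without 24m replicate 1 the differences were larger, with log2FC of −0.91 for Hba-a1, −0.89 for Hba-a2, −1.13 for Hbb-bs, −1.13 for Hbb-bt and −1.28 for Alas2 (edgeR adjusted p between 2.68e-08 and 0.00559). Without 6m replicate 3, the library with the highest globin levels, they were −0.59, −0.57, −0.72, −0.79 and −0.93, and Hba-a2 then missed the size threshold with an adjusted p of 0.0058, while Alas2 had an adjusted p of 0.0997. DESeq2 on quantile-normalized counts was the alternative nearest to the authors' own analysis. With it 3 members lost the call, Hba-a1 (log2FC −0.49, adjusted p = 0.111), Hba-a2 (−0.50, adjusted p = 0.0803) and Alas2 (adjusted p = 0.0938).

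Levels were compared between members per kilobase of canonical transcript (738 bases for Hba-a1, 647 for Hba-a2, 664 for Hbb-bs, 704 for Hbb-bt and 2037 for Alas2). In CPM, Hba-a1 was above Hba-a2 in 8 of 8 libraries, and per kilobase that order was reversed in 8 of 8. At 6m the levels were 3816 ± 860 CPM per kilobase for Hba-a2, 3420 ± 777 for Hba-a1, 3268 ± 695 for Hbb-bs, 828 ± 139 for Hbb-bt and 10.1 ± 1.43 for Alas2 (SD, n = 4). At 24m they were 2300 ± 569, 2042 ± 510, 1797 ± 631, 450 ± 149 and 5.25 ± 2.92 in the same order. Within each library this order held in 8 of 8, with Hba-a2 at 1.11 to 1.13 times Hba-a1, Hba-a1 at 1.00 to 1.27 times Hbb-bs, Hbb-bs at 3.82 to 4.22 times Hbb-bt and Hbb-bt at 62.9 to 164 times Alas2. All of these ratios depend on the division by length, which can understate a longer transcript where 1 read stands for 1 RNA strand. Without it, in CPM, Hba-a1 was 1.11 to 1.41 times Hbb-bs and Hbb-bs 3.61 to 3.98 times Hbb-bt. Hbb-bt was then 21.8 to 56.8 times Alas2. The ratio of Hba-a2 to Hba-a1 also rests on rows that may share reads.

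Shares within a library do not depend on the scaling between libraries and show whether the chains and copies kept their proportions. Hba reads, with both copies added, made up 63.6%, 64.3%, 65.2% and 64.4% of the adult globin reads in 6m replicates 1 to 4, and 63.7%, 67.2%, 69.0% and 67.5% in 24m replicates 1 to 4, out of 3494 to 8042 globin reads per library. The 3 aged libraries with low globin levels had the highest alpha shares, and 24m replicate 1 had a share inside the young adult range. The 95% Clopper-Pearson intervals of 24m replicates 2, 3 and 4 began at 65.7%, 67.4% and 66.1%, above the share measured in every young adult library. These intervals cover counting error only. They take the reads of both alpha rows as separate, and are too narrow if reads were counted on both. The means were 64.4 ± 0.654% at 6m and 66.8 ± 2.23% at 24m (SD, n = 4 each), a difference of 2.46 percentage points that did not pass the exact two-sided permutation test (p = 0.114). Without 24m replicate 1 the difference was 3.50 points and the exact permutation p was 0.0286, the smallest that 4 against 3 libraries allow. That library is the aged one inside the young adult range, so leaving it out parted the ages in full. Leaving out any other library gave an exact permutation p from 0.114 to 0.2.

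The copies of the alpha chain kept to a nearly fixed proportion. Hba-a1 held 50.5%, 50.7%, 50.5% and 50.4% of the Hba reads at 6m and 50.4%, 50.4%, 50.2% and 50.2% at 24m. The SD of this share over the 8 libraries was 0.163 percentage points, whereas independent counting of that many reads would give an SD of 0.914 points. The counts of the 2 rows thus matched more closely than separate samples of reads would. The multi-mapping setting of the counting is not given in the sources used here, and whether reads were counted on both copies was not tested. Elsewhere in the table, 4 other pairs of tested genes that do not overlap had the same count in all 8 libraries, among them Il11ra2 and Il11ra3 with 27 to 60 counts, a pair named after its values were seen.

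Hba-a1 exceeded Hba-a2 by 34, 41, 57 and 26 reads at 6m and by 20, 19, 12 and 13 reads at 24m. Relative to Hba-a2 this was 1.90%, 2.95%, 2.20% and 1.68% at 6m and 1.54%, 1.50%, 1.00% and 0.888% at 24m, so the ages did not overlap. The Hba-a1 share was lower at 24m by 0.234 percentage points (exact two-sided permutation test, p = 0.0286, the smallest possible with 4 against 4). That difference rests on few reads per library. Independent counting would give each library's share a larger error, but the 2 rows may share reads, so that error may not apply.

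If Hba-a1 alone is taken to stand for the alpha reads, an alternative added after these counts were seen, the alpha share was 46.9% to 48.6% at 6m and 46.9% to 52.8% at 24m. The difference between the ages was then 2.63 points (exact permutation test, p = 0.114), so the choice changed the level of the share and hardly its difference. The 95% Clopper-Pearson intervals of 24m replicates 2, 3 and 4 then began at 48.8%, 50.7% and 49.2%, against a highest young adult share of 48.6%.

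Hbb-bs held 78.3%, 78.3%, 79.9% and 78.4% of the Hbb reads at 6m and 79.3%, 79.0%, 79.1% and 78.3% at 24m. The range from 78.3% to 79.9% was narrow, with an SD of 0.596 points over the 8 libraries against 1.04 points from counting error, and the ages overlapped. The difference of 0.205 points did not pass the exact permutation test (p = 0.600). Unlike the alpha pair, the beta pair kept an unequal proportion, with Hbb-bs at 3.61 to 3.98 times the count of Hbb-bt.

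**Figure D2:**
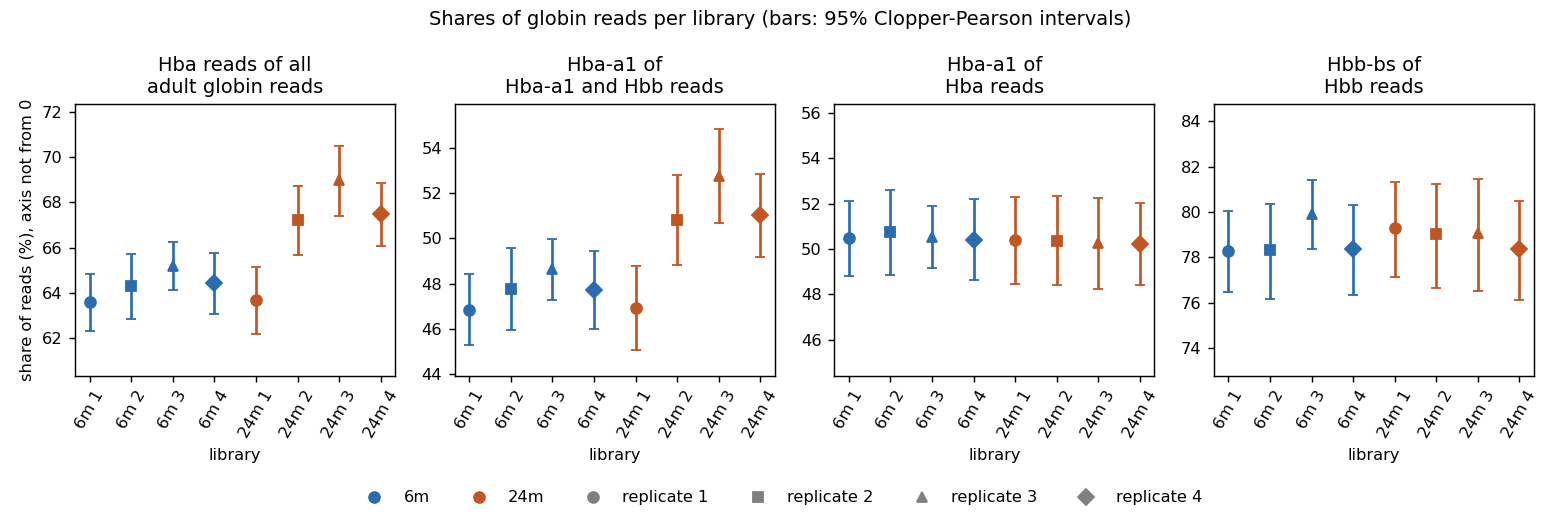
Shares of globin reads in percent (vertical axes, each spanning the same width and not starting at 0) for each of the 8 libraries, with 95% Clopper-Pearson intervals as bars, blue for 6m and orange for 24m. The alpha shares of 24m replicates 2, 3 and 4 (67.2% to 69.0%) stand above those of the other libraries, while the shares of the copies within a chain stay near 50% for Hba-a1 and near 79% for Hbb-bs.

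Alas2 reads were set against globin reads in the same way, as a description. There were 2.65, 2.97, 2.24 and 2.89 Alas2 reads per 1000 adult globin reads at 6m, and 2.92, 3.16, 1.14 and 2.06 at 24m. The lowest value, that of 24m replicate 3, rests on 4 reads and has a 95% interval from 0.312 to 2.93, which overlaps those of all other libraries. With the Hba-a2 row left out of the globin reads, the ratio was 3.30 to 4.34 per 1000 at 6m and 1.74 to 4.74 at 24m. The ratio was not tested between the ages.

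The members varied together across the 8 libraries. Over all 10 pairs, Pearson's r of the log2 CPM ran from 0.81 to 1.00 and Spearman's rho from 0.90 to 1.00. The 4 globins ranked the libraries identically, from 6m replicate 3 at the top through 6m replicates 2 and 1, 24m replicate 1 and 6m replicate 4 to 24m replicates 3, 2 and 4. Between chains, Hba-a1 and Hbb-bs had r = 0.99 (exact permutation p = 2.48e-05, the smallest that 8 libraries allow, 4.13e-05 after adjustment over the 10 pairs) and rho = 1 (exact permutation p = 4.96e-05, likewise the smallest, 8.27e-05 adjusted). Without the 2 libraries farthest from the median of Hba-a1, r was 0.98.

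Hba-a1 and Hbb-bt had r = 0.98, Hba-a2 had r = 0.99 with Hbb-bs and 0.98 with Hbb-bt, and Hbb-bs and Hbb-bt had r = 1.00; each had the same smallest exact permutation p values, and r without the 2 farthest libraries was between 0.98 and 0.99. The r of 1.00 between Hba-a1 and Hba-a2 is no separate evidence of joint variation, since their rows may share reads. Reads of 1 library also share its depth and preparation.

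The correlations of Alas2 with the globins were lower in value. Its r was 0.81 with Hba-a1 (exact permutation p = 0.0132, adjusted 0.0140), 0.81 with Hba-a2 (p = 0.0140, adjusted 0.0140, exact permutation), 0.87 with Hbb-bs (p = 0.0037, adjusted 0.00462, exact permutation) and 0.88 with Hbb-bt (p = 0.00335, adjusted 0.00462, exact permutation), and rho was 0.90 with each (exact permutation p = 0.00456, adjusted 0.00456). Without the 2 libraries farthest from the median of the globin, r with Alas2 was 0.74, 0.74, 0.91 and 0.94 in the same order.

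Part of this joint variation lies between the ages and part within them. With each age centred on its mean, r between the globins of different chains was 0.94 to 0.97 and between Hbb-bs and Hbb-bt 0.99, and r with Alas2 was 0.56 (Hba-a1), 0.55 (Hba-a2), 0.70 (Hbb-bs) and 0.72 (Hbb-bt). The 6 pairs of globins passed an exact permutation test within the ages (p = 0.00174, the smallest that this permutation allows, adjusted 0.00289). Pairs with Hba-a2 are not separate from those with Hba-a1, since their rows may share reads. The 4 pairs with Alas2 did not pass (exact permutation within the ages, adjusted p = 0.233 with Hba-a1 and Hba-a2 and 0.139 with Hbb-bs and Hbb-bt), at Alas2 counts of 4 to 18 per library.

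**Figure D3:**
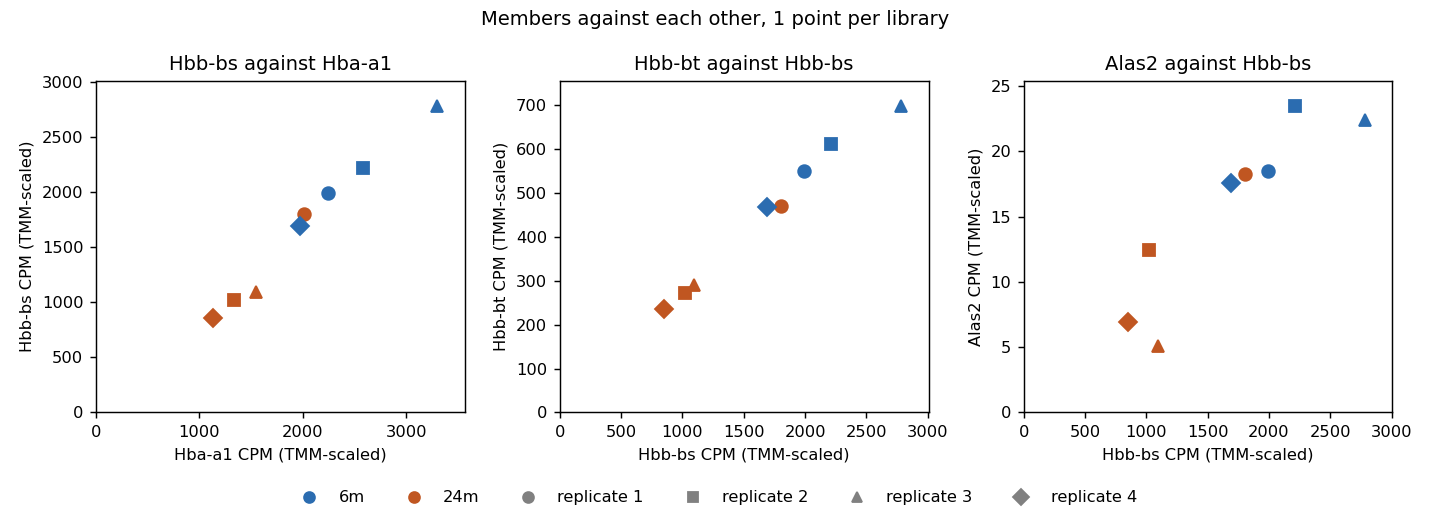
Levels in TMM-scaled CPM of Hbb-bs against Hba-a1, Hbb-bt against Hbb-bs and Alas2 against Hbb-bs (axes from 0), with 1 point per library, blue for 6m, orange for 24m and marker shapes for replicate numbers. The globins lie close to a line (r = 0.99 and 1.00 on the log2 scale), with 24m replicate 1 among the young adult libraries, and Alas2 scatters more (r = 0.87).

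Among all 9375 genes tested, the ones most like the summed globins by r over the 8 libraries, other than the members, were Polr3a (r = 0.97), Srrm2 (0.97), Asl (0.96), Psd3 (0.96) and Zfp638 (0.96). An r of at least 0.9 was found for 60 genes tested, members included, which is 0.64% of them, and the median r over all genes was 0.001. Alas2 stood at position 291 with r = 0.84. With each age centred, the highest were Cacfd1 (r = 0.96), Asl (0.94), Polr3a (0.93), Trappc6a (0.93) and 1190005I06Rik (0.93), and 25 genes (0.267%) had an r of at least 0.9. Asl and Polr3a were in both groups of 5. The genes were picked as the highest of 9375 over 8 libraries and are named as a description only.

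Most genes of haem synthesis did not pass the test. All 9 enzymes of the pathway were tested. Of them 2 were changed and lower at 24m (Alas2 and Alad), against 4.17% of all genes tested, and none was changed and higher, against 10.3%. The median log2FC of the 9 was −0.09 against −0.0034 over all genes. Alad, the second enzyme, which joins aminolevulinic acid into porphobilinogen, fell by 0.58 on the log2 scale (SE 0.15, edgeR adjusted p = 0.00845), from 86.6 ± 9.20 to 58.7 ± 7.06 CPM (SD, n = 4 each), and its ages did not overlap. Its log2FC lay on the size threshold, which it missed under most alternatives while the adjusted p stayed under 0.05.

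Alas1, the synthase of non-erythroid cells, was at 86.2 CPM at 6m and 73.2 CPM at 24m, with a log2FC of −0.24 that did not pass the test (SE 0.15, edgeR adjusted p = 0.256). Of the later enzymes, Uros had a log2FC of 0.04, Urod −0.21, Cpox 0.63 and Ppox −0.09, and Fech, which inserts iron into the ring, 0.48, none of them past the test (edgeR adjusted p from 0.107 to 0.937). The intervals of Uros, Cpox and Ppox were wide, at 1 to 34 counts per library.

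Genes that carry haem precursors or build the pathway in mitochondria gave no changed gene among the 5 tested of 8, with a median log2FC of −0.31. The erythroid iron importer Slc25a37 had at most 6 counts in a library and was not tested. Slc25a39, a mitochondrial carrier needed for haem synthesis, had a log2FC of −0.31 (SE 0.11, edgeR adjusted p = 0.0453), under the size threshold. Of the 8 genes of haem breakdown and scavenging, 5 were tested and none was changed, with a median log2FC of −0.06. Among them, Hmox1, the inducible haem oxygenase, had a log2FC of 0.78 (SE 0.46, edgeR adjusted p = 0.243), and Hmox2, the constitutive oxygenase of the brain, −0.06 (SE 0.12, edgeR adjusted p = 0.783).

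**Figure D4:**
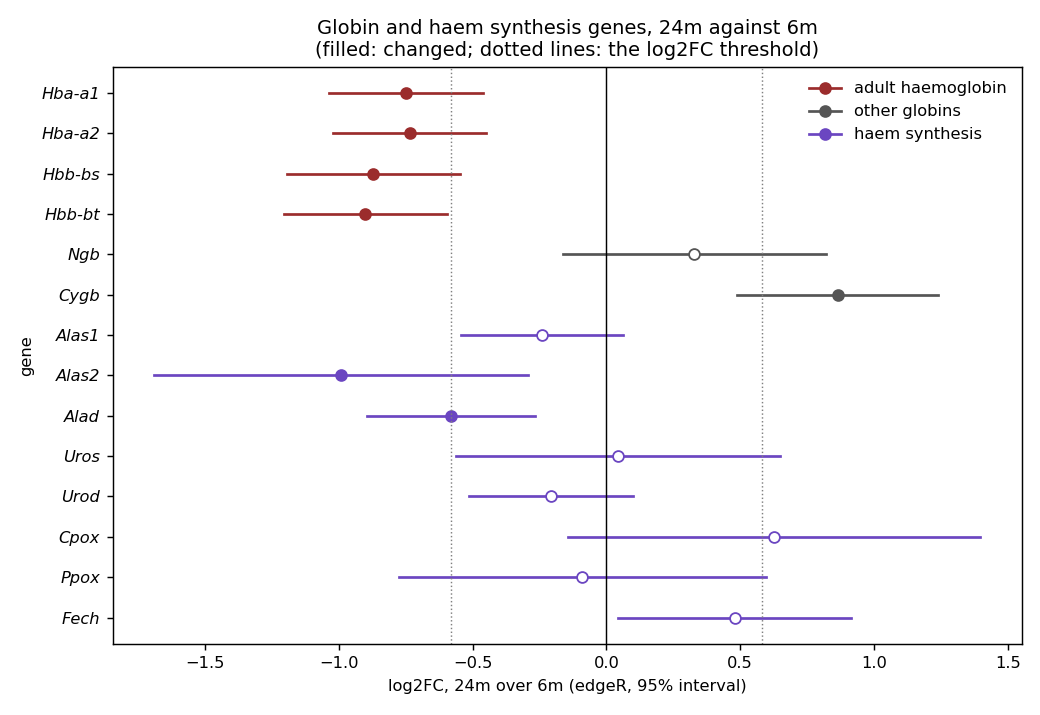
Log2FC of 24m over 6m (horizontal axis) with 95% intervals from edgeR for the adult haemoglobin genes, 2 other globins and 8 haem synthesis genes, filled where called changed, with dotted lines at the log2FC threshold of 0.58. The 4 adult haemoglobin genes lie between −0.90 and −0.74, Cygb lies at 0.86, and of the haem synthesis genes Alas2 and Alad are filled.

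Of the other globins, none was changed and lower. Of 13 listed, 9 were in the table and 2 were tested. Cygb, cytoglobin, which is found in fibroblast-like and other non-erythroid cells, was changed and higher, from 42.3 ± 13.7 to 79.4 ± 7.19 CPM (SD, n = 4 each), with a log2FC of 0.86 (SE 0.18, edgeR adjusted p = 0.00159), a direction that held under each scaling tried. Its ages did not overlap, as in 21.1% of the genes tested, and 10.3% of them were changed and higher. Ngb, neuroglobin, which is found in neurons, had 14 to 19 counts at 6m and 16 to 44 at 24m and a log2FC of 0.33 that did not pass the test (SE 0.24, edgeR adjusted p = 0.353). The embryonic genes Hbb-bh1, Hbb-bh2 and Hba-x had no count in any library, and Hbb-y, Hbq1a, Hbq1b and the myoglobin gene Mb had at most 3. Reads of haemoglobin genes were thus almost all on the adult genes.

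Most markers of erythroid cells other than the globins had few or no counts. Of 25 listed genes, 24 were in the table, 11 had no count in any library and 17 had at most 3 in every library. The defining genes Epb42, Rhag, Kel, Ermap, Hemgn and Gata1 were at 0 throughout, and Slc4a1, the red cell anion exchanger, had 1 count in all. Of the 6 tested, 2 were changed and higher, against 10.3% of all genes tested, and none was changed and lower, against 4.17%. Their median log2FC was 0.42. The summed level of the list was 169.5 to 197 CPM at 6m and 249.3 to 317 CPM at 24m, opposite in direction to the globins. The 2 changed genes were Tmcc2 (log2FC 0.81, SE 0.15, edgeR adjusted p = 0.000576) and Sptb (1.27, SE 0.32, edgeR adjusted p = 0.00575), and Sptb encodes a beta spectrin that neurons also express. Most of the list's counts came from Tmcc2, with 724 reads over the 8 libraries, and Bpgm, with 399, whose log2FC was 0.09 (edgeR adjusted p = 0.753). The sum thus says little about the genes of the list with few counts.

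Of 11 genes that are abundant in reticulocytes and widely expressed elsewhere, 9 were tested, 3 were changed and higher (Bnip3l, Ube2o and Cat, with log2FC of 0.62, 0.61 and 0.75) and none was changed and lower, with a median log2FC of 0.24. Of all genes tested, 10.3% were changed and higher and 4.17% changed and lower. The calls of Bnip3l, Ube2o and Cat were near the threshold. Cat lost its call in 7 of 8 fits that left out a library, with DESeq2 (adjusted p = 0.130), with limma-voom (adjusted p = 0.130) and with a replicate block (adjusted p = 0.0563). DESeq2 on quantile-normalized counts also lost the calls of Cat (adjusted p = 0.218) and Bnip3l (adjusted p = 0.115). Bnip3l further lost its call in 5 of those 8 fits, with DESeq2 (adjusted p = 0.0932) and with limma-voom (log2FC 0.576). Ube2o lost its call in 1 of those 8 fits, without 6m replicate 2 (log2FC 0.57). Bsg had a log2FC of −0.43 (edgeR adjusted p = 0.000945), which is under the size threshold. Prdx2, an abundant red cell peroxiredoxin, had a log2FC of −0.23 (edgeR adjusted p = 0.0856). The summed level of this list was 2219 to 2333 CPM at 6m and 1904 to 2110 CPM at 24m. Most of its counts came from Bsg, with 5692 reads over the 8 libraries, and Prdx2, with 4266, whose negative log2FC are given above. The sum thus says little about the other genes of this list.

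Among markers of other blood and vessel cells, Ly6c2, of monocytes, was the only tested gene of 13 granulocyte and monocyte genes and was changed and lower (log2FC −1.51, SE 0.42, edgeR adjusted p = 0.0127), at 6 to 11 counts at 6m and 3 to 5 at 24m. That call was lost with DESeq2 (adjusted p = 0.0682) and without 24m replicate 4 (edgeR adjusted p = 0.0562). Of 15 lymphocyte genes 3 were tested, and Ighm and Igkc were changed and higher (log2FC 1.97 and 7.43). Without 24m replicate 1, Ighm had a log2FC of −0.05 and Igkc of 3.25, and quantile-normalized limma-voom gave 0.67 (adjusted p = 0.471) and 3.37 (adjusted p = 0.430), with neither called. Of 7 platelet genes 2 were tested and none was changed, with a median log2FC of −0.11. Of 17 genes of brain endothelium and mural cells 10 were tested and none was changed, against 14.5% of all genes tested. Of these 10, 9 were below 0, with a median log2FC of −0.39 against −0.0034 over all genes tested. Ly6c1 had a log2FC of −0.578 (SE 0.17, edgeR adjusted p = 0.0150), just under the size threshold of 0.58. Its 24m libraries all lay below its 6m libraries, as in 9.96% of the genes tested. The summed level of the list was 485 to 708 CPM at 6m and 425 to 508 CPM at 24m. The part of blood or vessel cells in the globin levels was not tested.

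Genes next to the members were also read, within 100 kilobases, a window chosen after the globin values were known. Beside the alpha genes 4 of 9 neighbours were tested. Nprl3, whose introns hold enhancers of the alpha genes, had a log2FC of −0.06 (SE 0.21, edgeR adjusted p = 0.869), Mpg −0.25 (adjusted p = 0.442) and Rhbdf1 −0.99 (adjusted p = 0.0509, at 4 to 14 counts), none past the test, while Snrnp25, of the minor spliceosome, was changed and lower (−0.61, SE 0.17, edgeR adjusted p = 0.0115), a call lost in 3 of 8 fits that left out a library. Beside the beta genes 13 of the 14 neighbours, olfactory receptors and embryonic globins, had no count and the other, Hbb-y, had at most 1. Beside Alas2, 2 of 4 neighbours were tested, and Tro, which encodes trophinin, was changed and lower (log2FC −1.01, SE 0.14, edgeR adjusted p = 1.37e-05).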

How the data were processed

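The authors mapped ONT direct RNA reads to GRCm39 with minimap2 (2.24 in the submitters' processing notes), counted them with featureCounts on Ensembl genes, and deposited the raw counts. Strand and multi-mapping settings are not given in the sources used here. The authors' low-count filter, quantile and row-wise median normalization came later and are not in the file.

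The members and gene lists were chosen with earlier results of these data known. Genes were matched by Ensembl identifier to GENCODE vM39 on the same build; promoters are from RefSeq. The ages were compared, 4 libraries each, over genes whose mean count was over 5, with edgeR 4.0.16 (R 4.3.3; quasi-likelihood, TMM, age as the only term) after the test was checked on simulated counts; standard errors come from the log2FC and its F statistic. Correlations used log2 CPM with a prior count of 2. Shares have Clopper-Pearson intervals at 95%. Alternatives included DESeq2 1.42.0, limma-voom (limma 3.58.1), other scalings and filters, a replicate block and leaving out each library. Named genes are all members, every changed gene of a list, the haem synthesis genes and other globins with a count, and the 5 genes most like the summed globins before and after centring each age. A few of these are left out. Neighbours of the members and genes singled out from lists were named after their values were seen.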

Additional observations from a re-analysis of the deposited data

Results flagged for a closer look

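The share of Hbb-bs in Hbb reads was 79.9% in 6m replicate 3, apart from 78.3% to 78.4% in the other 3 young adult libraries, a gap of 0.952 of the range of the group. Its 95% interval, 78.4% to 81.4%, overlaps those of the other libraries, and it is the library with the highest globin levels. A gap above the critical value of Dixon's test arises by chance in about 1 of 20 groups, and 20 groups of 4 libraries were examined.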

How the results depend on the processing

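The members' log2FC kept their sign under every alternative and every library left out. Calls, which need both the adjusted p and the size, were lost as follows. DESeq2 on quantile-normalized counts gave log2FC of −0.49 for Hba-a1 (adjusted p = 0.111), −0.50 for Hba-a2 (adjusted p = 0.0803) and −1.0 for Alas2 (adjusted p = 0.0938). Quantile-normalized limma-voom gave −0.53 and −0.54 for Hba-a1 and Hba-a2, under the size threshold with adjusted p = 0.00754 and 0.00531. Alas2 also lost its call with library sizes alone (−0.89, adjusted p = 0.0663) and DESeq2 (−0.98, adjusted p = 0.0964). Hbb-bs and Hbb-bt lost no call under any alternative or library left out. The cause of these shifts was not tested.

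With each library left out in turn, log2FC ran from −0.89 to −0.57 for Hba-a2 and from −1.28 to −0.77 for Alas2, the alpha share difference from 1.74 to 3.50 points, and the Hba-a1 share difference from −0.275 to −0.171 points (exact permutation p between 0.0286 and 0.0571).

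Of 1359 changed genes, 71.2% were higher at 24m. DESeq2 called 834 and, on quantile-normalized counts, 824. The higher share was 84.5% with library sizes alone, which moved the median log2FC of all genes to 0.10, and 59.2% with limma-voom. With each age centred, 6 of the 10 member pairs passed (permutation within ages) against 10.

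Genes that did not pass the test changed sign: with library sizes alone Ppox (0.018) and Nprl3 (0.046), and with limma-voom Uros (−0.064). With libraries left out, they ran from −0.15 to 0.30 (Uros), −0.39 to 0.12 (Ppox) and −0.16 to 0.045 (Nprl3), and Ighm from −0.051 to 2.35.

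Deviations from the age means correlated at −0.16 to 0.065 between same-numbered libraries and at −0.095 to 0.11 between differently numbered ones. The numbers are not stated to pair mice, and pairing was not tested. With a replicate block, 1308 genes were changed and the members' log2FC were −0.75, −0.74, −0.90, −0.91 and −0.99, with no call lost. Depth limits Alas2 most, at 4 to 18 counts.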

Other observations

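The listed brain markers gave values of their own beside the globins. Of 13 genes 9 were tested. Of these, 4 were changed and higher at 24m, against 10.3% of all genes tested, and 1 was changed and lower, against 4.17%. The median log2FC of the 9 was 0.56. Gfap, the intermediate filament of astrocytes, had the highest log2FC of them (1.94, SE 0.17, edgeR adjusted p = 5.03e-08), at 33 to 59 counts at 6m and 175 to 234 at 24m. The myelin gene Mbp had a log2FC of 0.72 and the synaptic gene Snap25 0.77. The ages overlapped for Snap25. Its call was lost with DESeq2 (adjusted p = 0.111) and with DESeq2 on quantile-normalized counts (adjusted p = 0.0932). The glutamate transporter gene Slc1a2 was lower, at −0.59, a call lost with DESeq2 (adjusted p = 0.0715). Slc1a2 kept its call in 5 of 11 alternatives and lost it in 3 of 8 fits that left out a library. Of 9 choroid plexus genes 4 were tested and none was changed. All 4 were below 0, with a median log2FC of −0.41. Enpp2 had a log2FC of −0.46 (SE 0.11, edgeR adjusted p = 0.0055), under the size threshold. The summed levels were 3211 to 4789 CPM at 6m and 2493 to 4765 CPM at 24m, so the ages overlapped. Most of these counts came from Ttr, with 21780 reads over the 8 libraries and a log2FC of −0.11, so the sum says little about the other genes.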
